A study of Mus musculus with 4 samples.

Results

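The genes described here encode heterochromatin protein 1 (HP1) and the machinery that methylates lysine 9 of histone H3 (H3K9). They are Cbx1, Cbx3, Cbx5, Setdb1, Ehmt1, Ehmt2, Suv39h1, Suv39h2 and Trim28, which are 9 of the 22380 protein-coding genes, and of the 37310 genes of all kinds, in the GENCODE M1 annotation of the mouse mm9 assembly. They were listed by name for their function, and the listing rule holds no measured value, although earlier results of these data were known when it was made. The study purified chromatin by ChIP-Seq from E14 mouse embryonic stem cells (ESCs) to map the binding sites of Myc, an E-Box-binding transcription factor, and of Max, its dimerization partner. The Bio-Myc ChIP used streptavidin beads on a stable clone of E14 cells that expressed biotin-tagged Myc. In that clone the Biotag at the N-terminus of Myc was biotinylated by the BirA ligase, and the tagged gene was driven by the ubiquitous EF1α promoter, so Bio-Myc was present in addition to the cells' own Myc. The Max ChIP used an antibody against Max on parental wild-type E14 cells. The controls of these ChIPs were a mock ChIP on streptavidin beads and an IgG ChIP. The labels give parental wild-type cells for both controls, whereas the methods describe the mock cells as BirA-expressing ESCs without a tagged protein. All 4 samples share the E14 background, there was 1 library for each ChIP, and Bio-Myc was measured in 1 clone.

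HP1 proteins bind H3K9 methylated nucleosomes through their chromodomain and help to compact chromatin. Cbx5 encodes HP1α, Cbx1 encodes HP1β and Cbx3 encodes HP1γ. Suv39h1 and Suv39h2 are H3K9 methyltransferases of constitutive heterochromatin, Ehmt2 (G9a) and Ehmt1 (GLP) form a heterodimer that methylates H3K9 in euchromatin, and Setdb1 methylates H3K9 at silenced retroelements in ESCs. Trim28 (KAP1) is the corepressor through which KRAB zinc finger proteins recruit Setdb1. Myc and Max bind DNA as a heterodimer, with the E-Box CACGTG as the preferred site and CACGCG and CATGTG among the variants.

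The deposited lists held 3962 Bio-Myc peaks and 11570 Max peaks, each with a score that is 10 times the negative log10 of the p-value given by the peak caller. The lowest scores were 80 for Bio-Myc and 80.02 for Max, at the limit of 1e-08, and the medians were 128.77 for Bio-Myc and 160.32 for Max. The lists hold no read counts, so the depth is unknown, and scores were ranked within a list and not compared between the lists. With 1 library for each ChIP no difference has a replicate check, so values are set beside those of all protein-coding genes or all peaks, without a test. The promoter window of a gene reached 1 kb to either side of each of its annotated transcription start sites (TSSs). A peak that shared at least 1 bp with it is called a promoter peak, and the gene is called bound.

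E-Boxes were searched within 1 kb of any TSS of the 9 genes and under their promoter peaks. There were 15 CACGTG sites, of which 7 lay under both a Bio-Myc and a Max peak, 3 under a Bio-Myc peak alone, 0 under a Max peak alone and 5 under neither. The sites of Cbx1 and Cbx3, the Cbx5 site 1147 bp upstream and the Trim28 site 1407 bp upstream lay beyond 1 kb of any TSS. They were found only because a peak covered them, so the split does not measure how often an E-Box was under a peak. The sites under Bio-Myc peaks are printed here in mm9 coordinates, 5′ to 3′ on the strand of the gene, since they show where the bound promoters carry the motif and how its flanks differ. Capitals mark the E-Box.
Cbx5, 169 bp upstream of the TSS, chr15:103070387-103070446, minus strand: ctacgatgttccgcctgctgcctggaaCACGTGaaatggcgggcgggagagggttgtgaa
Cbx5, 1147 bp upstream, in an intron of Hnrnpa1, chr15:103071365-103071424, minus strand: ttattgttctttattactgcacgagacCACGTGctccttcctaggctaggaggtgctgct
Cbx3, 1735 bp upstream, in an intron of Hnrnpa2b1, chr6:51418595-51418654, plus strand: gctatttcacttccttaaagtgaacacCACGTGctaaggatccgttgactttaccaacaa
Cbx1, in an intron 1210 bp downstream, chr11:96651622-96651681, plus strand: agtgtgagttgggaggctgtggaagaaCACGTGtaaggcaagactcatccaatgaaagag
Ehmt2, 225 bp upstream, in a UTR exon of C2, chr17:35035175-35035204, plus strand: aggctcaggctaCACGTGttcccaaaaccg
Ehmt2, 19 bp upstream, in a UTR exon of C2, chr17:35035381-35035410, plus strand: tccctccttgtcCACGTGacccggggcggc
Ehmt2, in an intron 267 bp downstream, chr17:35035652-35035711, plus strand: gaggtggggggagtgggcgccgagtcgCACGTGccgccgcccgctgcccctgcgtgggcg
Ehmt2, in a coding exon near an internal TSS, chr17:35047916-35047945, plus strand: cccacagcactgCACGTGtgtggatgactg
Trim28, 1407 bp upstream, chr7:13608065-13608124, plus strand: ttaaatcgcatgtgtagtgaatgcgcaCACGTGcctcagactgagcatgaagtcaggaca
Trim28, 768 bp upstream, chr7:13608704-13608763, plus strand: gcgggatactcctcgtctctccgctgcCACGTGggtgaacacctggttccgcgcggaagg
Distances are from the outermost TSS of each gene. The Trim28 site 768 bp upstream was the only one of the 15 to extend to CCACGTGG, a longer palindrome that was present in 10.1% of all Bio-Myc peak sequences and 6.27% of those for Max.

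Every bound gene of the group had promoter peaks of both proteins. These genes were Cbx1, Cbx3, Cbx5, Ehmt2, Suv39h2 and Trim28, and no promoter peak of either protein was called at Setdb1, Ehmt1 or Suv39h1. Thus 6 of 9 were bound by Bio-Myc, beside 14.6% of all protein-coding genes. The same count for Max was 6 of 9 beside 34.8%, for both proteins 6 of 9 beside 12.7%, and for neither 3 of 9 beside 63.2%. A window of 5 kb gave the same genes and counts, and there the shares of all protein-coding genes were 16.6% for Bio-Myc, 38.6% for Max, 14.5% for both and 59.2% for neither. All 3 HP1 genes were bound, although no peak covered a TSS of Cbx1. The paired methyltransferases were split, with Ehmt2 bound and Ehmt1 not, and Suv39h2 bound and Suv39h1 not. These subsets were set apart after the counts were seen and are too small to read as a difference.

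**Figure D1:**
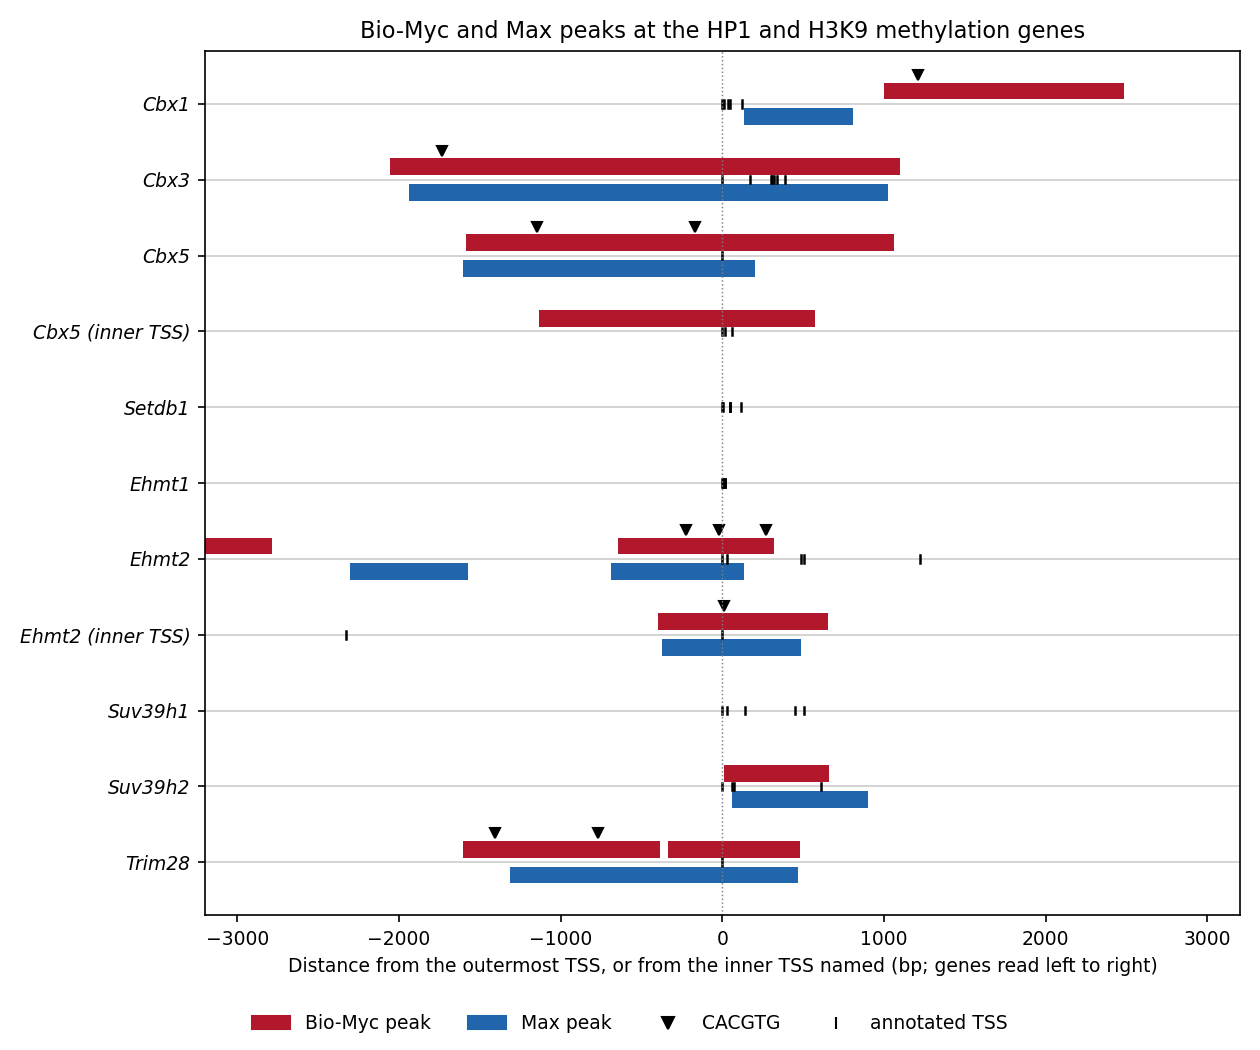
Positions of Bio-Myc peaks (red), Max peaks (blue), CACGTG sites (triangles) and annotated TSSs (black ticks) along each gene, in bp from the outermost TSS or from the internal TSS named, with transcription from left to right. Peaks lie over or beside the TSSs of 6 genes and are missing at Setdb1, Ehmt1 and Suv39h1, and the Cbx1 peaks do not overlap. The axis cuts off the Bio-Myc peak 2786 bp upstream of Ehmt2.

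Cbx5 had the highest Bio-Myc score of the 9 genes. Its promoter peak at chr15:103069183-103071832 scored 803.52 and ranked 39 of 3962. The Max peak at chr15:103070048-103071849 scored 758.36 and ranked 364 of 11570. The peaks overlapped over 1785 bp, which is 67.4% of the Bio-Myc peak and 99.1% of the Max peak. Both held 2 CACGTG sites, and among peaks of like width (within 10%), 59.4% of 32 for Bio-Myc and 28.5% of 302 for Max held at least 2. The site 169 bp upstream of the TSS was 91 bp off the Bio-Myc centre and 532 bp off the Max centre. Cbx5 (ENSMUSG00000009575.8, chr15:103021975-103070247, minus strand) lies 698 bp from the divergent TSS of Hnrnpa1, which encodes an RNA-binding protein of pre-mRNA splicing, and both peaks were promoter peaks of either gene. The Max centre, at 103070948, was nearer to the Hnrnpa1 TSS at 103070945 than to the Cbx5 TSS at 103070247. The Bio-Myc centre, at 103070507, was nearer to the Cbx5 TSS. To which of the genes the peaks belong cannot be told apart.

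The other 3 transcripts of Cbx5, all protein-coding, start further inside the gene, the last of them 24511 bp from the outer TSS, and a second Bio-Myc peak covered their TSSs. This peak, at chr15:103045227-103046932, scored 115.69 and ranked 2318. No Max peak overlapped their promoter windows, and no CACGTG or CACGCG was found under the peak. Its CpG content was low, with 0.232 as the ratio of observed to expected CpG dinucleotides, whereas the peak at the outer promoter had a ratio of 0.778.

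Cbx3 (ENSMUSG00000029836.9, chr6:51420359-51433703, plus strand) had the widest peaks of the group. The Bio-Myc peak at chr6:51418304-51421456 was 3153 bp wide, the 7th widest of its list, and scored 563.22 at rank 104. The Max peak at chr6:51418423-51421384 was 2962 bp wide, scored 719.34 and ranked 424. The Max peak lay wholly within the Bio-Myc peak and the centres were 23 bp apart, less than the lower quartile of 49 bp among the 3071 overlapping pairs of the lists. The only CACGTG under these peaks was in the flank of both, 1256 bp away from the Bio-Myc centre and 1279 bp away from the Max centre. In peaks as wide as these a CACGTG was common, at 91.7% of 12 Bio-Myc peaks and 71.4% of 21 Max peaks. Like Cbx5, Cbx3 shares its promoter with a splicing factor gene: Hnrnpa2b1 starts 466 bp away in the opposite direction, and the same peaks covered its promoter. The peak centres, at 51419880 for Bio-Myc and 51419903 for Max, lay to either side of the Hnrnpa2b1 TSS at 51419893. Both were thus nearer to that TSS than to the Cbx3 TSS at 51420359. To which of these genes the peaks belong cannot be told apart. Of the 3275 protein-coding genes bound by Bio-Myc, 29% shared a promoter peak with another protein-coding gene.

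Cbx1 (ENSMUSG00000018666.7, chr11:96650441-96669954, plus strand) was the only bound gene in which the peaks of the pair did not overlap. The Max peak at chr11:96650577-96651249 started 14 bp downstream of the nearest TSS and scored 92.79, rank 10081 of 11570. The Bio-Myc peak at chr11:96651438-96652925 started 875 bp downstream of the nearest TSS and scored 141.41, rank 1750. They were separated by 188 bp, and their centres, both intronic, were 1268 bp apart. The Bio-Myc peak reached only the edge of the promoter window, and if a peak had to cover a TSS, Cbx1 was not bound by either protein. It held 1 CACGTG, 530 bp from its centre, and 56.9% of the 441 Bio-Myc peaks of like width held at least 1. It also held 4 copies of the variant CATGTG, and 2.49% of those peaks held as many. Its CpG ratio was 0.230, whereas that of the Max peak was 1.004.

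The peaks at Cbx1 and at the internal TSSs of Cbx5 were the only Bio-Myc promoter peaks of the 9 genes that overlapped no Max peak, and both were poor in CpG. The other 7 Bio-Myc promoter peaks had ratios from 0.360 at the internal TSS of Ehmt2 to 0.988 at Suv39h2. Over the whole list, the median ratio was 0.747 for the 2967 Bio-Myc peaks that overlapped a Max peak and 0.396 for the 995 that did not. A ratio of 0.232 or lower was found in 3.57% of the former and 24.4% of the latter.

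**Figure D2:**
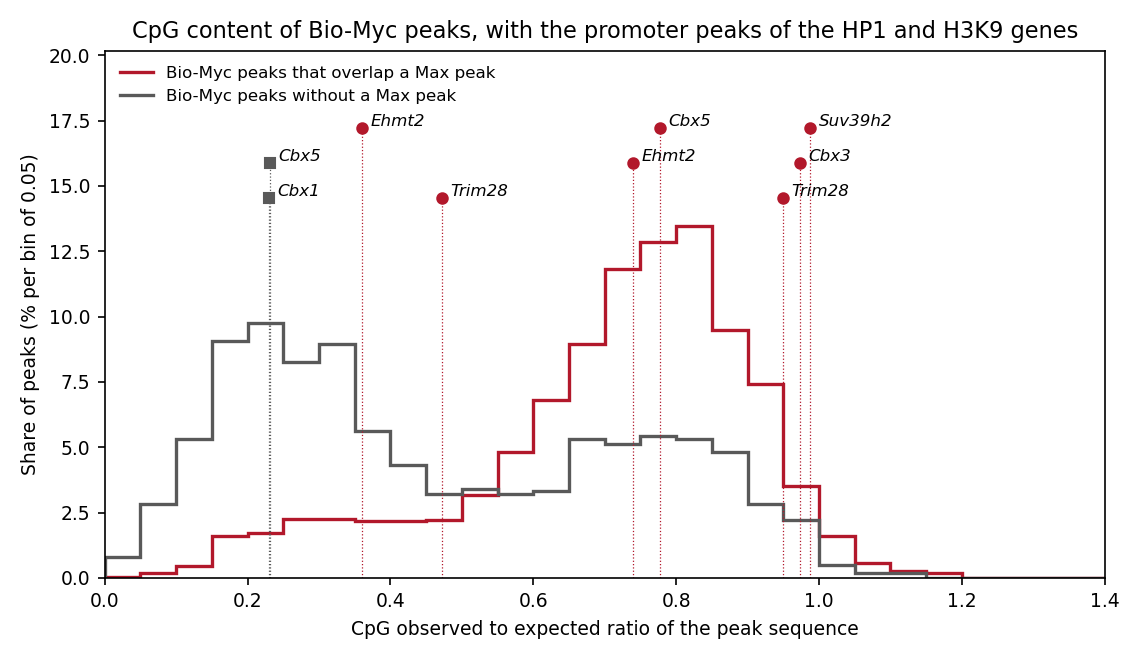
Distribution of the ratio of observed to expected CpG in Bio-Myc peaks that overlap a Max peak (red line) and in those that do not (grey line), as a percentage of peaks per bin of 0.05. Symbols above the lines mark the 9 promoter peaks of the HP1 and H3K9 methylation genes (circles with and squares without a Max peak), and the Cbx1 peak and the internal Cbx5 peak sit together at the low end.

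Ehmt2 (ENSMUSG00000013787.9, chr17:35035414-35050997, plus strand) had 2 pairs of overlapping promoter peaks. At its outer promoter, the Bio-Myc peak at chr17:35034770-35035735 scored 123.53 (rank 2129) and the Max peak at chr17:35034727-35035550 scored 197.54 (rank 4488). They overlapped over 781 bp with centres 114 bp apart, beside a median of 108 bp for all overlapping pairs. The Bio-Myc peak held 3 CACGTG sites, and 1.15% of the 953 Bio-Myc peaks of like width held as many. The Max peak held 2 of them, and 5.86% of the 3432 Max peaks of like width held at least 2. The site 225 bp upstream of the TSS was the nearest to the centres, at 63 bp for the former peak and 51 bp for the latter. An annotated TSS of C2, the gene of complement component 2, lies 17 bp from the Ehmt2 TSS on the opposite strand. Both outer peaks were thus promoter peaks of C2 as well, and to which gene they belong cannot be told apart.

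The internal pair of Ehmt2 lay over the TSS of a retained-intron transcript, 12506 bp into the gene. The Bio-Myc peak at chr17:35047522-35048571 scored 118.42 and the Max peak at chr17:35047544-35048409 scored 152.03. The Max peak lay wholly within the Bio-Myc peak, and the CACGTG was 116 bp from the Bio-Myc centre and 46 bp from the Max centre. The scores of the 2 Bio-Myc promoter peaks of Ehmt2 were thus close, at ranks 2129 and 2261. Upstream of Ehmt2, towards C2 and Zbtb12, the 5-kb window also held a Bio-Myc peak scoring 83.5 and Max peaks scoring 184.85 and 97.23.

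Suv39h2 (ENSMUSG00000026646.10, chr2:3373087-3392303, minus strand) had the lowest Bio-Myc promoter score among the bound genes. The Bio-Myc peak at chr2:3391644-3392296 scored 101.28 (rank 2872), and the Max peak at chr2:3391402-3392245 scored 174.30 (rank 5234). They overlapped over 602 bp with centres 147 bp apart. Neither held a CACGTG, which was present in 40.2% of 353 peaks of like width for Bio-Myc and 37.7% of 3252 for Max. Both held 2 copies of CACGCG, and 7.37% and 13% of those peaks held at least 2. The sites are printed on the minus strand in mm9, since this was the only bound gene without a CACGTG. Capitals mark CACGCG or its reverse complement CGCGTG, and both sites lie in an intron.
Suv39h2, 347 bp downstream of the outermost TSS, chr2:3391942-3391971: agcaggaaagcaCACGCGctgcggcggtag
Suv39h2, 575 bp downstream of the outermost TSS, chr2:3391714-3391743: gggcacgcagtgCGCGTGcgtgcgctcgag
The former was 14 bp off the Bio-Myc centre, and the latter was 95 bp off the Max centre.

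Trim28 (ENSMUSG00000005566.7, chr7:13609501-13616384, plus strand) had the highest Max score of the 9 genes. A Max peak of 1782 bp at chr7:13608188-13609969 scored 1002.88 and ranked 170 of 11570. It spanned 2 Bio-Myc peaks, which lay on either side of a gap just upstream of the TSS. The upstream peak, at chr7:13607897-13609115, scored 233.78 (rank 728) and held 2 CACGTG sites. The peak over the TSS, at chr7:13609165-13609980, scored 143.66 (rank 1690) and held no CACGTG. Instead it held 4 CACGCG, and 1.27% of the 786 Bio-Myc peaks of like width held as many. The Max centre was 572 bp off that of the upstream peak and 494 bp off that of the peak over the TSS, both beyond the upper quartile of 210 bp for overlapping pairs. The other 3 CACGTG sites of Trim28, near internal TSSs of retained-intron transcripts, lay under no peak. With Cbx5 and Ehmt2, Trim28 made 3 genes with more than 1 Bio-Myc promoter peak, beside 115 (3.51%) of the 3275 bound protein-coding genes. The second peaks of Cbx5 and Ehmt2 count only through internal TSSs, and the share was not split by the number of TSSs of a gene.

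Under stricter limits on the p-value, Cbx3, Cbx5 and Trim28 stayed longest. At a p-value of 1e-15, Cbx3, Cbx5 and Trim28 kept a Bio-Myc peak (3 of 9, beside 6.85% of protein-coding genes), and these genes with Ehmt2 and Suv39h2 kept a Max peak (5 of 9, beside 22.6%). At 1e-20, only Cbx3, Cbx5 and Trim28 kept a peak of either protein (3 of 9 each, beside 4.43% for Bio-Myc and 17% for Max). At 1e-50, Cbx3 and Cbx5 kept Bio-Myc and those genes with Trim28 kept Max. The share of all protein-coding genes was not counted at 1e-50, so these counts have no background. The bound gene with the lowest score differed between the lists, with Suv39h2 for Bio-Myc and Cbx1 for Max.

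**Figure D3:**
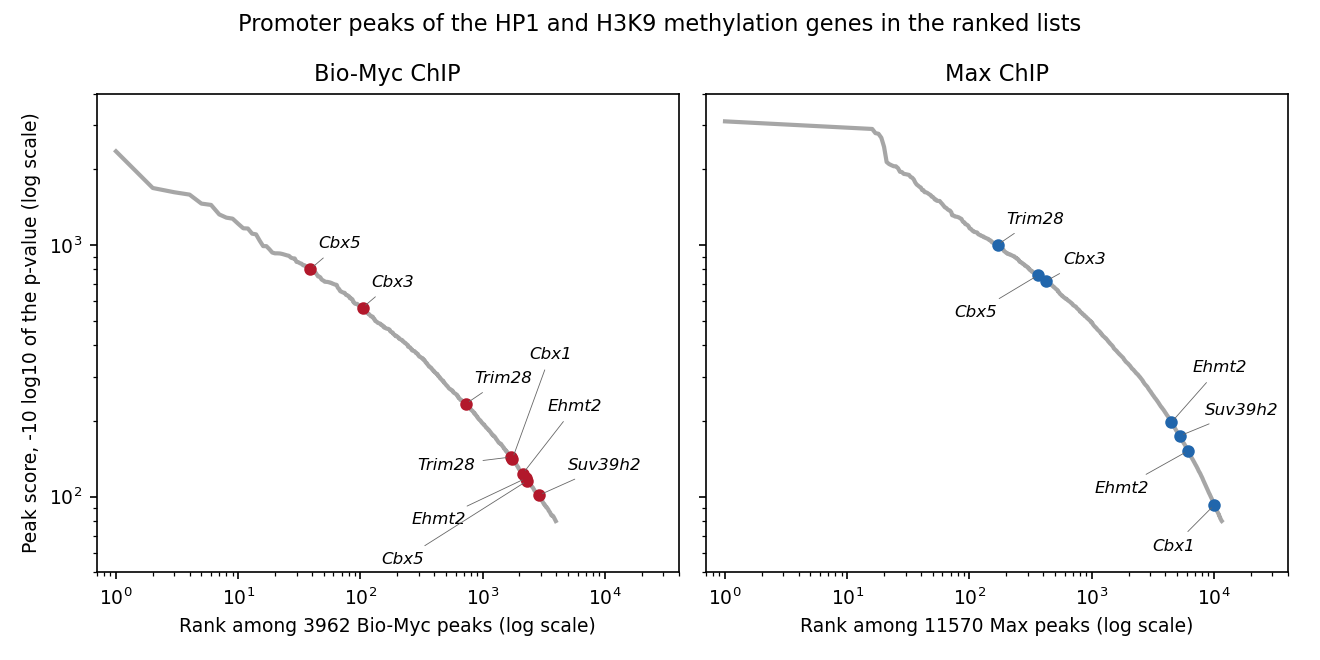
Score of every Bio-Myc peak (left) and Max peak (right) by its rank, both axes logarithmic, with the promoter peaks of the HP1 and H3K9 methylation genes as coloured points. The highest peaks of Cbx5, Cbx3 and Trim28 lie above every peak of Ehmt2, Suv39h2 and Cbx1 in both lists, and the internal Cbx5 peak and the second Trim28 peak lie further down the Bio-Myc curve.

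By rank, the pair of peaks most like that of Cbx5 was sought among the 2832 protein-coding genes with both, as the distance between percentile ranks in the 2 lists. Hnrnpa1 has the same peaks and a distance of 0. Next were Alkbh1, 1810035L17Rik and 2700073G19Rik, tied at 0.315 percentage points. All had the same Bio-Myc score of 854.46 (rank 31) and the same Max score of 737.53 (rank 392). No other Bio-Myc peak held rank 31, so these genes share that peak and stand for a single locus.

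At the unbound genes Setdb1, Ehmt1 and Suv39h1, the nearest peaks lay outside the gene itself. A peak given here as at another gene lay within 1 kb of a TSS of that gene. The Bio-Myc peak nearest to Suv39h1 had no annotated TSS within 1 kb. From the TSSs of Setdb1 (ENSMUSG00000015697.8, chr3:95127447-95161124, minus strand) the nearest Bio-Myc peak was 75.2 kb away, at Fam63a and Prune, and the nearest Max peak was 41.2 kb away, at Lass2. From those of Ehmt1 (ENSMUSG00000036893.9, chr2:24646289-24775129, minus strand) the distances were 42.3 kb for Bio-Myc, at Wdr85, and 15.5 kb for Max, at Arrdc1. From those of Suv39h1 (ENSMUSG00000039231.12, chrX:7638297-7651886, minus strand) they were 58.3 kb for Bio-Myc and 70.2 kb for Max, the latter at Rbm3. These distances were below the medians of 217 kb for Bio-Myc and 86.8 kb for Max over the protein-coding genes with neither peak. Of those genes, 27.9%, 18.2% and 23.5% lay nearer to a Bio-Myc peak than Setdb1, Ehmt1 and Suv39h1 respectively, and 34.3%, 17.6% and 45.6% lay nearer to a Max peak.

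Neither CpG content nor the E-Box alone separated the bound from the unbound genes. Within 500 bp of the outermost TSS, the CpG ratio was 0.838 at Setdb1, 0.945 at Ehmt1 and 0.941 at Suv39h1. At the bound genes it ran from 0.788 at Ehmt2 to 1.043 at Cbx1, so the groups overlapped. The median was 0.549 over all protein-coding genes, 0.782 over those bound by Bio-Myc and 0.318 over those with neither peak. All 9 promoters thus lay among the 4959 protein-coding genes (22.2%) with a ratio of at least 0.788. Of these CpG-rich genes, 32% were bound by Bio-Myc, 65% by Max and 28.8% by both, so 6 of 9 for Max was close to the share of promoters of this kind, and 6 of 9 for Bio-Myc was above it. This floor was set at the lowest of the 9 ratios after the values were seen. A CACGTG within 1 kb of the outermost TSS was present at Cbx5, Ehmt2 and Trim28 and not at the other 3 bound genes or the 3 unbound ones. Within 1 kb of any TSS, the unbound Ehmt1 also held 2 CACGTG sites, near internal TSSs and under no peak. The shares given next are for the outermost TSS. The shares were 27.8% of all protein-coding genes, 49.8% of those bound by Bio-Myc and 20.1% of those with neither peak.

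Other genes of the H3K9 pathway were taken from a list of 37. By the same rule 11 of them (29.7%) were bound by Bio-Myc, 26 (70.3%) by Max, 9 (24.3%) by both and 9 by neither. The shares of all protein-coding genes were 14.6%, 34.8%, 12.7% and 63.2% in that order. Among the CpG-rich genes described earlier, 32% were bound by Bio-Myc, 65% by Max and 28.8% by both, so the list was near those shares. Partners of SETDB1 and the HUSH silencing complex had the largest share bound by Bio-Myc among the 5 groups of the list, at 4 of 6. The group was picked out as the largest after the counts were seen, and 6 genes are too few to read its share as a difference. Its bound genes included Morc2a, a HUSH-associated ATPase (Bio-Myc 350.43, Max 594.99), and Fam208a, the HUSH subunit TASOR annotated as D14Abb1e (192.50 and 1028.17). The others were Mphosph8, the chromodomain subunit of HUSH (129.63 and 155.11), and Atf7ip, the SETDB1 cofactor (83.55, near the limit, with no Max peak). Setdb1 itself was unbound. Among the 4 further H3K9 methyltransferases, Prdm2 was bound by both (234.31 and 768.25). Of the 4 partners of G9a and GLP, Cdyl2 was bound by both (90.80 and 127.45) and the other three by Max.

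Of the 10 H3K9 demethylase genes, 0 were bound by Bio-Myc and 6 by Max. The highest of those was at Kdm3a, which demethylates mono- and dimethylated H3K9, with a Max score of 789.85 at rank 322. For Max, the shares were 34.8% of all protein-coding genes and 65% of the CpG-rich ones described earlier, so 6 of 10 was near the latter. For Bio-Myc they were 14.6% and 32%. Beside a background of 14.6%, 10 genes are too few to read the Bio-Myc count of 0 as a difference. A difference from the 32% was not tested. Of the 13 HP1 partners and heterochromatin factors, 5 (38.5%) had a Bio-Myc peak. The share was 14.6% for all protein-coding genes and 32% for the CpG-rich ones. Suv420h1, the H4K20 methyltransferase that HP1 recruits, scored 271.83 for Bio-Myc and 855.77 for Max. Adnp, a partner of HP1 in the ChAHP complex, scored 220.68 and 575.25. Hells, a chromatin remodeller needed for DNA methylation, scored 173.42 and 232.68, and Chaf1b, a subunit of the histone chaperone CAF-1, scored 96.54 and 114.30. Atrx, which deposits H3.3 with Daxx, had a Bio-Myc peak of 85.41 near the limit and no Max peak, whereas Daxx had a Max peak of 403.44 and no Bio-Myc peak.

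Genes of other histone-modifying complexes were counted in the same way. The Bio-Myc counts were 5 of 11 for PRC2, which methylates H3K27, 6 of 20 for PRC1, which ubiquitinates H2A, and 6 of 13 for COMPASS, which methylates H3K4. The Max counts were 9 of 11 (81.8%), 12 of 20 (60%) and 9 of 13 (69.2%), beside 34.8% of all protein-coding genes and 65% of the CpG-rich ones described earlier. In PRC2, PRC1 and COMPASS alike the Bio-Myc share exceeded the 14.6% of all protein-coding genes. Beside the 32% of the CpG-rich genes, PRC1 lay below at 30%, and PRC2 at 45.5% and COMPASS at 46.2% lay above. No test of a difference between the lists was made.

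**Figure D4:**
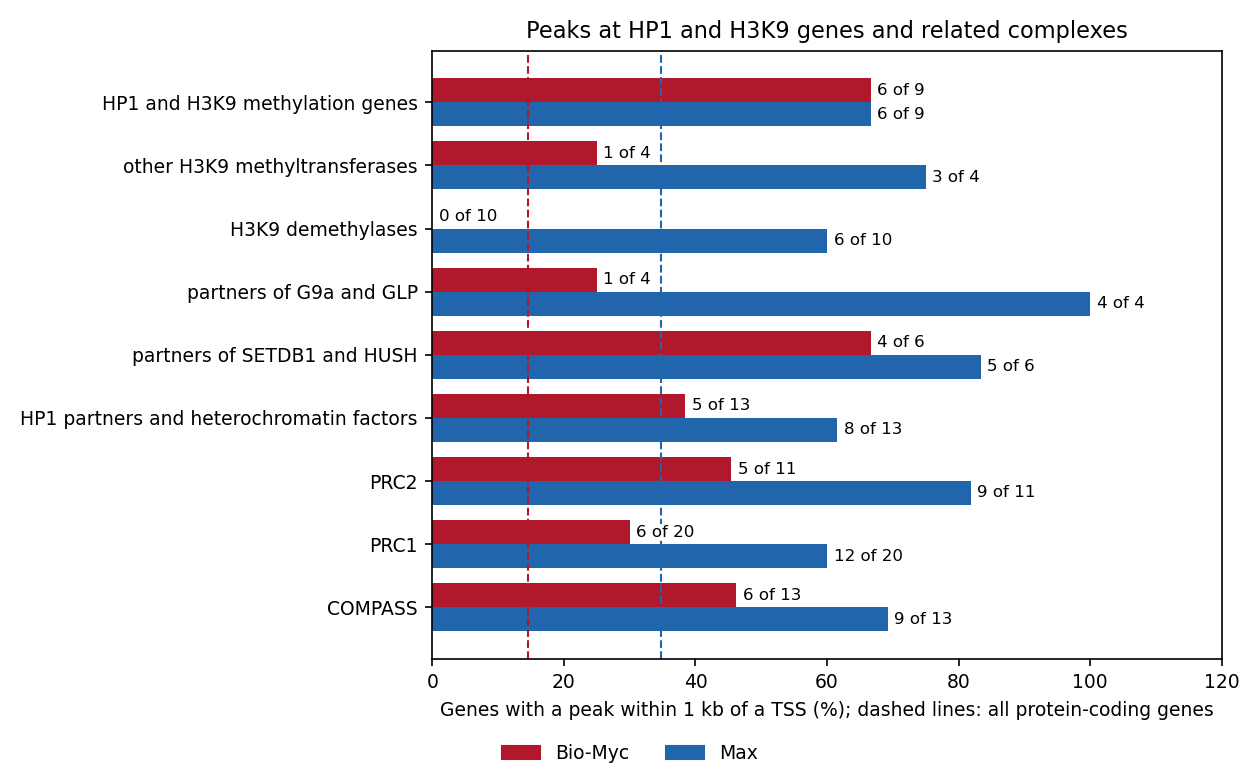
Percentage of genes with a promoter peak of Bio-Myc (red) or Max (blue) in the HP1 and H3K9 methylation genes and in 8 related lists, with counts beside the bars. Dashed lines mark all protein-coding genes, 14.6% for Bio-Myc and 34.8% for Max, and the demethylases are the only list with no Bio-Myc peak.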

How the data were processed

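Reads were aligned to mm9 by the authors with Bowtie 0.12.7, which kept unique hits (2 mismatches allowed). After duplicates were collapsed, MACS 1.4.1 called peaks over the mock or IgG ChIP with 1e-08 as the p-value limit. CASAVA 1.8 is also named in the submitters' processing notes. The deposited score of each peak is 10 times the negative log10 of that p-value, as the authors made it. Unique mapping leaves out repeated sequence, and the fixed p-value ties the number of peaks to a depth that the lists do not give. Reads of the control libraries were not used here.

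Peaks were set beside GENCODE M1 genes and the mm9 sequence with Python 3.11.15, numpy 2.4.6 and matplotlib 3.10.9, with 1-based coordinates. Motifs were counted on both strands under whole peaks. No test was run, since each ChIP has 1 library. The 9 genes and all lists were chosen with earlier results of these data known. Named were the 9 genes, genes sharing their promoter peaks, the 3 genes nearest to Cbx5 by rank (with ties) and every other H3K9 gene with a Bio-Myc peak. Kdm3a, Daxx and the genes at more distant peaks were named after their values were seen. The alternatives were other windows, TSS sets, p-value limits, list sizes and motif rules. The counting steps were tested on simulated data, and 10 of 10 returned the known answers.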

Additional observations from a re-analysis of the deposited data

How the results depend on the processing

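Of 63 alternative counts, 45 stayed within 1.5 times the reported count, among them every count under another promoter window, TSS set or position rule. Stricter p-values can only lower a count, since they leave fewer peaks. The 9 genes bound by Bio-Myc fell from 6 to 3 at 1e-15 and 3 at 1e-20, those bound by Max from 6 to 3 at 1e-20, and those bound by both from 6 to 3 at 1e-15 and 3 at 1e-20. With only the 3962 highest-scoring Max peaks, Max and both proteins were at 3 genes each. The other H3K9 genes bound by Bio-Myc fell from 11 to 7 at 1e-11, 6 at 1e-15 and 4 at 1e-20. Those bound by Max fell from 26 to 15 at 1e-15, 11 at 1e-20 and 10 with the shorter Max list. Genes with CACGTG under a Bio-Myc promoter peak numbered 5, and 3 in the central 500 bp, 2 in the central 200 bp and 3 at 1e-15. Under a Max promoter peak there were 4, with 4 at 1e-15 and 1 in either central part. Of all Bio-Myc peaks, 50.1% held CACGTG, 37% in the central 500 bp and 19.6% in the central 200 bp. For all Max peaks the shares were 38%, 30.7% and 19.6%. These are shares of peaks, whereas the counts are of genes, some with more than 1 peak. No paired analysis was possible because each ChIP has 1 library. Depth and the spread between cultures are unknown, so how many unbound genes lie just under the limit could not be measured.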
